A study of Mus musculus with 27 samples.

Results

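The response that acetaminophen (APAP) and its regioisomer AMAP had in common after 6 h was studied in TAMH cells. This mouse hepatocyte line comes from animals that carried a transgene for transforming growth factor alpha. It was taken as the mean of the APAP and AMAP group means minus the control mean on the log2 scale, so that both compounds counted equally, and it used 9 of the 27 arrays of the series. At 6 h there were 3 arrays of cells dosed with APAP at 2 mM, 3 of cells dosed with AMAP at 2 mM and 3 of cells given control medium alone. All groups were grown in serum-free medium with dexamethasone and an insulin, transferrin and selenium supplement, from passages between 25 and 35, with 2 dishes per treatment. The titles of the 3 arrays of each group end in P30, P31 and P32, numbers that lie within the stated passage range. The labels do not say whether P stands for passage, nor whether the arrays of a group came from separate cultures, so the p-values measure the spread between these samples. The other 18 arrays, harvested at 2 and 24 h, served to estimate the variance and to compare times.

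The 2 compounds differ in where the hydroxyl group sits on the ring, which is the para position in APAP and the meta position in AMAP. APAP is oxidised by cytochrome P450 enzymes to a reactive quinone imine that binds glutathione and proteins, which is the known starting point of liver injury after overdose. AMAP also forms reactive metabolites, but it cannot form the same quinone imine directly, and it has long been used as a comparison compound in mouse liver. Changes seen with both isomers are those that their para and meta forms have in common at this dose and time.

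The arrays at 6 h had medians of 7.26 to 7.35 on the log2 scale, and replicate arrays correlated with r of 0.993 to 0.997 across genes, which are not independent replicates. The first principal component (26.1% of the variance) separated the arrays of number 32 from the rest, and the second (19.4%) separated the treatments. Levels of 21 hepatocyte marker genes were read, among them albumin (Alb). Alb had 13.72, 13.62 and 13.79 in APAP cells, 13.84, 13.48 and 13.87 in AMAP cells and 13.72, 13.62 and 13.75 in control cells. The mean of the list per array was lower, from 9.15 to 9.53. Its median percentile among all genes was 67.3 with APAP, 68.4 with AMAP and 69.4 in control cells. The 7 biliary and progenitor markers had 73.1, 71.2 and 76.2. None of the 21 hepatocyte markers was called changed in limma. An unadjusted p under 0.05 was found for 2 of them, against 2385 of all 19938 genes. The leukocyte marker Ptprc lay at 5.71 to 5.93 in APAP cells, 5.69 to 6.06 in AMAP cells and 5.70 to 5.89 in control cells. Csf1r and Tyrobp lay at similarly low values. Cd14, another leukocyte and macrophage marker, lay far higher, at 10.58 to 10.68 in APAP cells and 10.63 to 10.74 in AMAP cells. The mean of Cd14 in control cells was 11.03.

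In the pooled comparison 384 of 19938 genes (1.93%) were called, that is, they had a Benjamini-Hochberg adjusted p under 0.05 in limma. Of these 157 (0.787%) were higher and 227 (1.14%) lower with the isomers than in control cells. The changes were small. Among the called genes 3 changed at least 2-fold, 43 changed at least 1.5-fold, and the median size was 0.37 log2 units. An unadjusted p under 0.05 in limma was found for 2385 of the 19938 genes. All 6 treated arrays lay on one side of all 3 control arrays for 314 of the 384, against 1100 of all 19938 genes (5.52%), of which 499 (2.5%) had all treated arrays above and 601 (3.01%) below. With the replicate number as a block, which pairs the arrays, 595 genes were called. Without control array 30, 31 or 32 the count was 160, 163 and 179, and without all arrays of number 30, 31 or 32 it was 19, 49 and 111, so the number of called genes depends on every control array.

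Each compound was also compared with the same 3 control arrays, which the 2 comparisons therefore share. APAP alone gave 498 calls (2.5%), of which 210 (1.05%) were higher and 288 (1.44%) lower, and AMAP alone gave 91 (0.456%), 32 (0.16%) higher and 59 (0.296%) lower. With the block these counts were 664 and 200. A gene was counted as shared when it was called in the pooled comparison, its 9 arrays did not overlap between treated and control cells, and each compound's own mean change had the pooled direction and at least 0.5 of the pooled size. By this rule 307 of the 384 genes were shared, 120 higher and 187 lower. The rule asks for no call with each compound. Of the 384, both compounds were called on their own for 70 (18.2%), APAP alone for 233 (60.7%), AMAP alone for 16 (4.17%) and neither for 65 (16.9%). When the larger of the p-values of the 2 compounds was adjusted over all genes, 31 genes were called in limma, all of them shared by the rule, and 14 of the 24 leading genes described here were among them. Because the rule uses these same values, the small differences between the isomers within the shared genes are a description and not a test. The shared increases had a median of 0.35 pooled, 0.36 with APAP and 0.33 with AMAP, and the shared decreases had medians of -0.37, -0.41 and -0.36 in that order, against medians of 0.00, 0.00 and 0.01 over all genes.

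**Figure D1:**
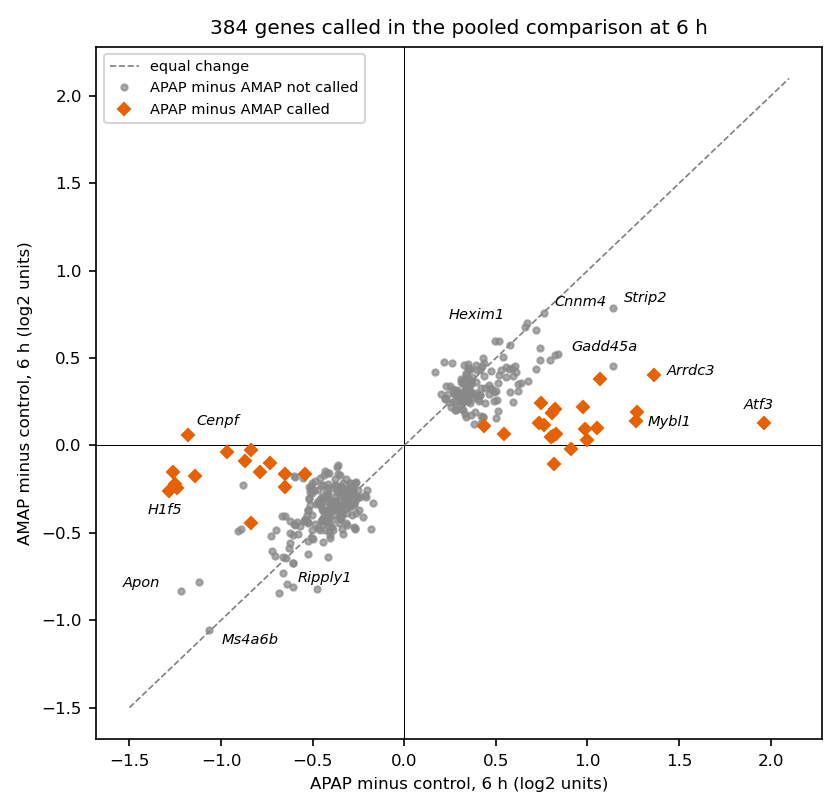
Change with APAP (horizontal axis) and with AMAP (vertical axis) against control at 6 h, in log2 units, for the 384 genes called in the pooled comparison. Each point is a gene, both axes share the control arrays, and the dashed line marks equal change. Of the 36 orange diamonds, for which APAP and AMAP differed (adjusted p under 0.05), 33 lie within 0.3 of 0 on the AMAP axis, whereas most grey points lie in a cloud along the dashed line.

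Sequences upstream of the genes that led the shared response are shown first, for the 3 largest shared increases and the largest shared decrease. They run from 250 bases before to 50 bases after the annotated start (RefSeq, GRCm38.p6), 5′ to 3′ on the gene's strand. Capitals mark a match to 1 of 4 motifs, searched on both strands, namely TGATGNAA (the composite element bound by ATF4 and C/EBP proteins), TGANTCA (AP-1), TGACGTCA (the cyclic AMP response element) and TGACNNNGC (the core of the antioxidant response element).
Strip2, chr6:29916763-29917062, plus strand: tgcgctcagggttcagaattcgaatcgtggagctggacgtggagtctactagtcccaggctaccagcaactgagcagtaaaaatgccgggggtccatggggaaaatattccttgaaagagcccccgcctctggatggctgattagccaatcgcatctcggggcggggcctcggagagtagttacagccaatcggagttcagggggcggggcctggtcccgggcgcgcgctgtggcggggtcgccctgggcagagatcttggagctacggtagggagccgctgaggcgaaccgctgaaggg
Gadd45a, chr6:67037358-67037657, minus strand: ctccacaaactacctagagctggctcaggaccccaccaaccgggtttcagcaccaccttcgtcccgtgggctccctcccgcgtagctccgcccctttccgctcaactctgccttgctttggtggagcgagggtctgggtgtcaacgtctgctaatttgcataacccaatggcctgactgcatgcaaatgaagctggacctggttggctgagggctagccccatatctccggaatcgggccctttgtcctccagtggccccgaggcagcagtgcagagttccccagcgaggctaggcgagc
Cnnm4, chr1:36471347-36471646, plus strand: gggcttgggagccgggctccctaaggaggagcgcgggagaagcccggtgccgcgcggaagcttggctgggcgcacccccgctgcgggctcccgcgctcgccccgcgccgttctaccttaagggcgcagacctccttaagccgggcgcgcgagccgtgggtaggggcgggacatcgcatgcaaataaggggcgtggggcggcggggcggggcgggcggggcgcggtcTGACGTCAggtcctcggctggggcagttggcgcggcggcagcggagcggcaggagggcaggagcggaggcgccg
Ms4a6b, chr19:11518309-11518608, plus strand: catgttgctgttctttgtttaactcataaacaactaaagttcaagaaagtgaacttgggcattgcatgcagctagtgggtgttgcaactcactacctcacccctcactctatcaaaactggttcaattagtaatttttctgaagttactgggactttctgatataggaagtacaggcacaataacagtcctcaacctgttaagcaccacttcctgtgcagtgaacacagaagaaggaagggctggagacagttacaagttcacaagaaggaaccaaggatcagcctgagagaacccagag

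Of these 4 windows, that of Cnnm4 held 1 match, the palindrome TGACGTCA, close to its annotated start. A promoter was listed for 18 of the 24 largest shared changes. TGACGTCA was found in 1 of the 18 and in 1.79% of 32851 promoters, TGANTCA in 2 of 18 (Ddit3 and Ripply1) and 7.81% of all, and TGACNNNGC in 4 of 18 (Glcci1, Itgb6, Ms4a4a and Naaa) and 12.4% of all. TGATGNAA was found in 0 of 18 and 3.97% of all. These are matches of letters only.

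The largest shared increase was in Strip2, a component of the striatin-interacting phosphatase and kinase complex. It had 7.60, 7.30 and 7.78 log2 units in APAP cells and 7.12, 7.28 and 7.21 in AMAP cells, against 6.45, 6.40 and 6.41 in control cells. All 6 treated arrays lay clear of the controls, as the rule for shared genes requires of each leading gene. All APAP arrays lay above all AMAP arrays. The pooled increase was 0.96 ± 0.09 (standard error, 1.95-fold, limma adjusted p = 5.53e-07), made of 1.14 ± 0.10 with APAP and 0.79 ± 0.10 with AMAP. The APAP minus AMAP difference was 0.36 (95% interval 0.15 to 0.57, adjusted p = 0.149).

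Cnnm4, a membrane protein of the cyclin M family that exports magnesium, had 10.02, 9.87 and 10.00 in APAP cells and 9.98, 10.04 and 9.85 in AMAP cells, against 9.19, 9.18 and 9.21 in control cells. The arrays of the 2 isomers overlapped each other and not the controls. It rose by 0.76 ± 0.07 (1.70-fold, adjusted p = 1.12e-06 in limma), with an APAP minus AMAP difference of 0.01 (95% interval -0.17 to 0.18). Its relative Cnnm2, also linked to magnesium transport, rose by 0.41 ± 0.10 (adjusted p = 0.0270), to 8.35, 8.18 and 8.26 in APAP cells and 8.42, 8.50 and 8.22 in AMAP cells, against 7.76, 8.00 and 7.99 in control cells. The other measured members, Cnnm3 (0.15 ± 0.07, adjusted p = 0.335) and Cnnm1 (0.07 ± 0.09, adjusted p = 0.846), did not pass. In the list of 24 transporter genes Cnnm4 and Cnnm2 were called higher and the phosphate and urate carrier Slc17a3 lower (-0.37 ± 0.08). Over all genes 0.787% were called higher and 1.14% lower. With the replicate block 2 of the list were higher and 3 lower. The Cnnm2 call was lost without control array 30, 31 or 32.

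Hexim1, the protein that with 7SK RNA holds the elongation kinase P-TEFb inactive, had 10.74, 10.71 and 11.12 in APAP cells and 10.81, 10.88 and 10.97 in AMAP cells, against 10.02, 10.35 and 10.18 in control cells. Every treated array was above every control array, as the rule for shared genes requires. It rose by 0.69 ± 0.12 (adjusted p = 0.00295 in limma), by 0.67 with APAP and 0.70 with AMAP, and the interval of their difference ran from -0.32 to 0.26. It was the 1 called member of 23 genes of elongation control, whose median change was 0.00, and its call was lost without the arrays of number 32 (adjusted p = 0.109).

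Other shared increases near the size of Hexim1 were Add3, a membrane skeleton adducin (0.69 ± 0.09), the RNA-binding protein Caprin2 (0.68 ± 0.08), the mitochondrial protein Chchd7 (0.67 ± 0.09) and the cochaperone Sgtb (0.67 ± 0.12). Glcci1, first described as a glucocorticoid-induced transcript (0.65 ± 0.12), the lysosomal hydrolase of N-acylethanolamines Naaa (0.64 ± 0.07) and the hydrolase family member Abhd15 (0.62 ± 0.10) followed. Add3 and Sgtb rose by nearly equal amounts with each compound, 0.72 with APAP and 0.66 with AMAP for Add3, and 0.66 and 0.68 for Sgtb. Caprin2, Chchd7, Naaa and Abhd15 had larger values with APAP (0.74 to 0.84) than with AMAP (0.49 to 0.52), though none of these 4 differences was called. For 7 of the 24 leading genes (Strip2, Add3, Sgtb, Ms4a6b, Ms4a4a, Rasgrp3 and Itgb6) the mean of at least 1 group lay below 7.26, the lowest array median, and no detection calls were analysed.

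**Figure D2:**
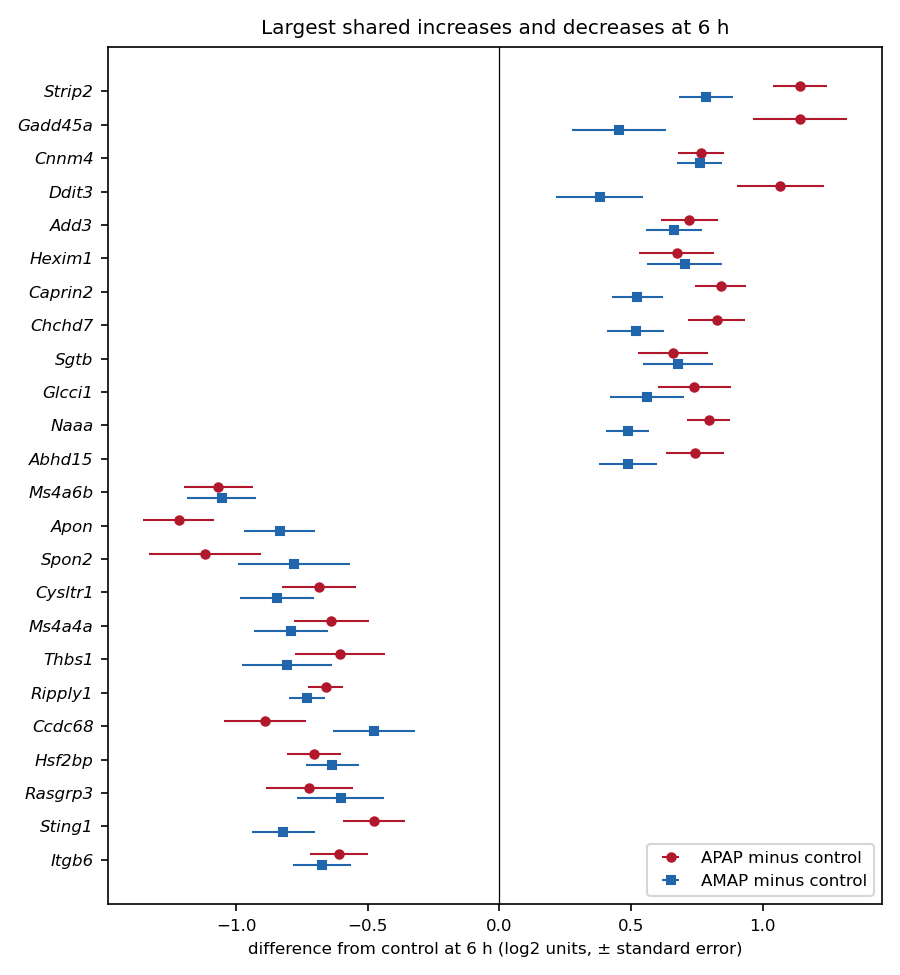
Difference from control at 6 h in log2 units (horizontal axis) for the 12 largest shared increases and 12 largest shared decreases, with circles for APAP, squares for AMAP and bars for the standard error of each difference. Cnnm4, Hexim1, Sgtb, Ms4a6b and Ripply1 have nearly the same value with both compounds, while Gadd45a and Ddit3 have a larger value with APAP.

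The stress genes Gadd45a and Ddit3 met the rule for shared genes with unequal sizes. Gadd45a, which binds and activates a kinase upstream of p38 and JNK, had 9.94, 10.04 and 10.54 in APAP cells and 9.34, 9.39 and 9.76 in AMAP cells, against 9.01, 8.94 and 9.16 in control cells. Ddit3, the transcription factor CHOP of the integrated stress response, had 9.39, 9.53 and 9.55 in APAP cells and 8.78, 8.85 and 8.79 in AMAP cells, against 8.41, 8.44 and 8.41 in control cells. For both genes AMAP arrays lay between the other groups without overlap. Gadd45a rose by 0.80 ± 0.16 pooled (adjusted p = 0.00595 in limma, 1.14 with APAP and 0.46 with AMAP), and its APAP minus AMAP difference of 0.68 had adjusted p = 0.0823. Ddit3 rose by 0.72 ± 0.14 pooled (adjusted p = 0.00667, 1.07 with APAP and 0.38 with AMAP), and its difference of 0.69 (95% interval 0.35 to 1.03) was called at adjusted p = 0.0484. Both pooled calls were lost without the arrays of number 30 or of number 31.

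Among 31 genes of the ATF4-driven stress response the medians were 0.17 pooled, 0.14 with APAP and 0.14 with AMAP. With APAP alone 4 were called higher, and with AMAP alone 0. The APAP minus AMAP test was called for 3, all higher with APAP. In the pooled comparison 3 were called higher and 0 lower, against 0.787% and 1.14% of all genes. Besides Ddit3 these were Mthfd2, an enzyme of mitochondrial folate metabolism (0.47 ± 0.11, 0.62 with APAP and 0.31 with AMAP), and Sesn2, a leucine sensor (0.60 ± 0.14, 0.98 and 0.22), whose difference between the compounds was called. With the replicate block 6 were higher, including the glutathione-degrading enzyme Chac1 (0.41, adjusted p = 0.0126, against 0.0924 without the block) and the pseudokinase Trib3 (0.52, adjusted p = 0.0149, against 0.156). Chac1 had 8.36, 8.48 and 8.55 in APAP cells, 8.32, 8.20 and 8.36 in AMAP cells and 7.92, 8.00 and 8.00 in control cells. Without control array 30, 31 or 32 the list had 1, 2 and 1 members called.

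The largest shared decrease was in Ms4a6b, a four-span membrane protein known from leukocytes. It had 6.60, 6.70 and 6.78 log2 units in APAP cells and 6.57, 6.52 and 7.04 in AMAP cells, against 7.54, 7.71 and 8.04 in control cells. No treated array reached the lowest control, as the rule for shared genes requires. It fell by 1.06 (standard error 0.11, adjusted p = 5.78e-06 in limma), by 1.07 with APAP and 1.05 with AMAP, and the interval of their difference ran from -0.28 to 0.26. Its neighbour Ms4a4a had 6.73, 6.70 and 6.48 in APAP cells and 6.41, 6.33 and 6.71 in AMAP cells, against 7.45, 7.26 and 7.12 in control cells, a change of -0.71 ± 0.12.

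The other Ms4a genes were looked at after these values were seen. Of 19 measured, all on chromosome 19 in the RefSeq table, 4 were called lower and 0 higher, against 1.14% and 0.787% of all genes. The 4 were Ms4a6b, Ms4a4a, Ms4a4c (-0.54 ± 0.11) and Ms4a6c (-0.41 ± 0.09). Ms4a6b and Ms4a4a were already known when the family was chosen. Ms4a6c had a low signal, 5.04 to 5.66 on all arrays, and its call was lost under 9 of 23 alternatives. Ms4a4b (-0.50) and Ms4a4d (-0.30) missed the threshold, both with adjusted p = 0.0529 in limma. The Ms4a4 and Ms4a6 genes are close paralogs. The values of single members are uncertain because probes may bind more than 1 of them. The leukocyte and macrophage markers stood beside this. Of 16, 1 (Cd14, the lipopolysaccharide coreceptor, -0.37 ± 0.07) was called lower, their mean level per array was 6.21 to 6.28 in APAP cells, 6.26 to 6.33 in AMAP cells and 6.17 to 6.36 in control cells, and Ptprc changed by 0.03. Their part in the Ms4a result was not tested.

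Apon, a mouse apolipoprotein gene, had 7.18, 7.22 and 7.47 in APAP cells and 7.58, 7.71 and 7.73 in AMAP cells, against 8.30, 8.65 and 8.57 in control cells. It fell by 1.03 (standard error 0.12, adjusted p = 1.04e-05), by 1.22 with APAP and 0.83 with AMAP, and all APAP arrays lay below all AMAP arrays, although the difference of -0.38 was not called (adjusted p = 0.343). Ripply1, a corepressor known from somite formation, had 7.73, 7.76 and 7.70 in APAP cells and 7.72, 7.65 and 7.61 in AMAP cells, against 8.36, 8.34 and 8.47 in control cells. It had the smallest adjusted p of the 24 leading genes (1.18e-07), with a decrease of 0.70 and a standard error of 0.06.

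Several other decreases were in secreted, receptor and adhesion genes. The extracellular matrix protein Spon2 changed by -0.95 ± 0.18, the leukotriene receptor Cysltr1 by -0.77 ± 0.12, the matricellular protein Thbs1 by -0.71 ± 0.15 and the integrin subunit Itgb6 by -0.64 ± 0.10. Ccdc68, a centriole protein (-0.68 ± 0.14), Hsf2bp, a meiotic recombination factor (-0.67 ± 0.09), and Rasgrp3, an exchange factor for Ras (-0.66 ± 0.14), fell too. Spon2 had 8.66, 8.05 and 8.18 in APAP cells and 9.08, 8.58 and 8.25 in AMAP cells, against 9.40, 9.33 and 9.51 in control cells, so that the treated arrays varied more than the controls. The Thbs1 call was lost without control array 32 (leave-out range of its value -0.78 to -0.61), as was that of Glcci1 among the increases (range 0.47 to 0.81), and those of Ccdc68 and Rasgrp3 without control array 30 (ranges -0.82 to -0.58 and -0.73 to -0.56).

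Sting1, the adaptor that relays signals of cytosolic DNA sensing, had the widest gap towards a larger AMAP change among the 12 leading decreases. It had 9.00, 9.04 and 9.31 in APAP cells and 8.63, 8.71 and 8.98 in AMAP cells, against 9.42, 9.52 and 9.84 in control cells. It fell by 0.65 pooled (standard error 0.10, adjusted p = 9.46e-04 in limma), by 0.48 with APAP and 0.82 with AMAP, and the APAP minus AMAP difference was 0.34 (95% interval 0.10 to 0.59, adjusted p = 0.325). The interferon-induced Ifit2 fell as well (-0.32 ± 0.08). Sting1 and Ifit2 were the 2 called among 27 genes of innate sensing and interferon response (median -0.11), against 1.14% of all genes called lower. With the replicate block 5 of the list were lower.

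**Figure D3:**
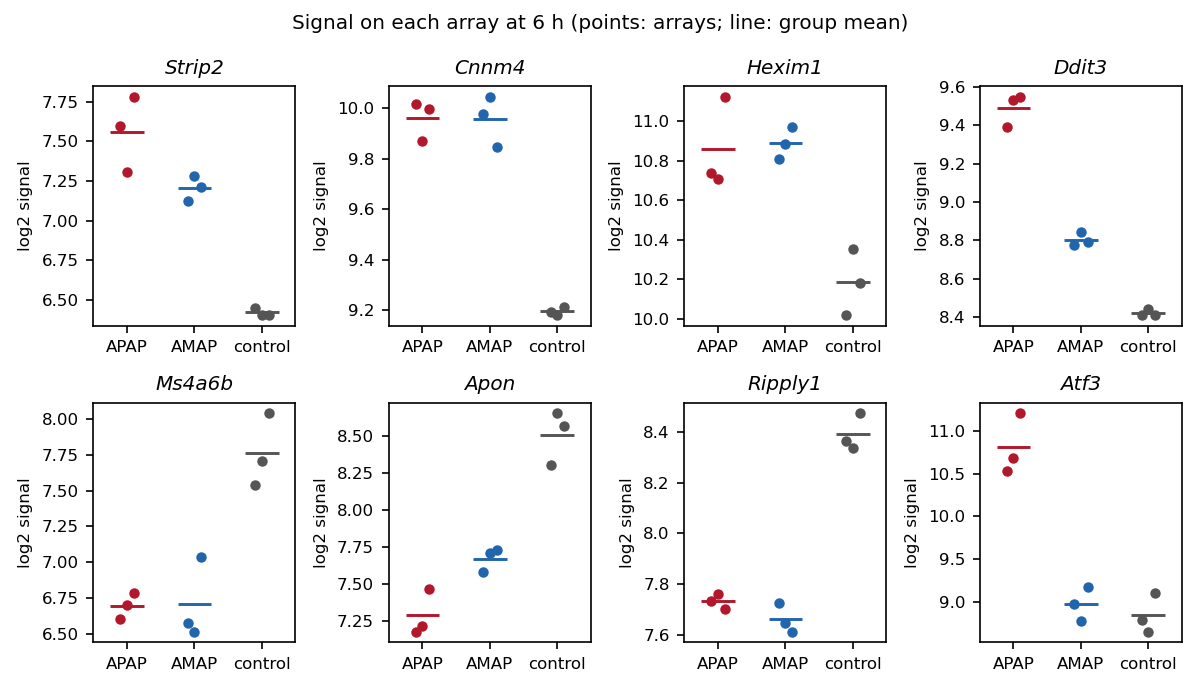
Log2 signal (vertical axis, its own range in each panel) on each of the 9 arrays at 6 h for 8 genes, with APAP at the left, AMAP in the middle and control at the right, points for arrays and lines for group means. The treated arrays lie clear of the controls for all genes but Atf3, as the rule for shared genes requires of those genes. For Atf3, AMAP and control arrays overlap near 8.65 to 9.17 and APAP arrays lie at 10.54 to 11.21.

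For 36 of the 384 genes the direct APAP minus AMAP test was also called, and in all 36 the larger change was with APAP. Over all genes that test gave 141 calls (0.707%), 95 (0.476%) higher and 46 (0.231%) lower with APAP. The 36 had a median change of 0.85 log2 units in size with APAP and 0.14 with AMAP, at most 0.44 with AMAP, and 1 of them (Jade2) was called for AMAP on its own. For 33 of the 36 the AMAP value was under 0.3 in size, and the others were Jade2 (-0.83 with APAP and -0.44 with AMAP), Arrdc3 (1.36 and 0.40) and Ddit3 (1.07 and 0.38). Ddit3, Jade2 and Zmiz1 (-0.65 and -0.24) were the 3 of the 36 that met the rule for shared genes.

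Atf3, a stress-induced transcription factor, was the clearest case. It had 10.54, 10.69 and 11.21 in APAP cells and 8.97, 8.77 and 9.17 in AMAP cells, against 8.78, 8.65 and 9.10 in control cells. AMAP arrays overlapped the controls. The pooled value of 1.05 ± 0.21 was past the threshold (adjusted p = 0.00707 in limma), yet it was made of 1.97 ± 0.24 with APAP and 0.13 ± 0.24 with AMAP, which differed by 1.84 (95% interval 1.34 to 2.33, adjusted p = 1.35e-04). Jun, the AP-1 subunit (1.27 with APAP, 0.14 with AMAP), the antiproliferative gene Btg2 (1.00 and 0.03) and the Myb family factor Mybl1 (1.27 and 0.19) had the same form. Arrdc3, an alpha-arrestin, had 9.51, 9.37 and 10.16 in APAP cells and 8.84, 8.64 and 8.67 in AMAP cells, against 8.22, 8.34 and 8.38 in control cells. Its pooled value was 0.88 ± 0.16 and its difference between the compounds 0.96.

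Targets of the tumour suppressor p53 had 6 of 26 members called higher and 0 lower in the pooled comparison. Over all genes 0.787% were called higher and 1.14% lower. The medians of the list were 0.22 pooled, 0.46 with APAP and -0.02 with AMAP. The APAP minus AMAP test was called for 16 of the 26, against 0.476% of all genes called higher with APAP. All 16 were higher with APAP, and none of the 26 was shared by the rule. Mdm2, which degrades p53, had 10.87, 11.13 and 11.04 in APAP cells and 9.96, 10.31 and 10.00 in AMAP cells, against 9.98, 10.35 and 9.99 in control cells, and its pooled adjusted p of 0.0499 sat at the threshold. Trp53inp1, a p53-induced nuclear protein (0.49 ± 0.11), and Pmaip1, the BH3-only protein Noxa (0.43 ± 0.09), were called too. Without control array 30, 31 or 32 the list had 2, 5 and 1 members called.

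Genes of mitosis had 12 of 40 members called lower and 0 higher, against 1.14% lower and 0.787% higher over all genes. Their medians were -0.31 pooled, -0.53 with APAP and -0.10 with AMAP, and 2 of the 12 were shared by the rule. The APAP minus AMAP test was called lower for 13 of the 40, against 0.231% of all genes. The spindle checkpoint kinase Bub1b had 8.47, 8.40 and 8.07 in APAP cells and 9.58, 9.69 and 8.76 in AMAP cells, against 9.65, 9.76 and 9.29 in control cells, and the centromere protein Cenpf changed by -1.18 with APAP and 0.06 with AMAP. The spindle assembly factor Tpx2 (-0.83 and -0.03) and the cytokinesis factor Ect2 (-0.65 and -0.16) were among them. Of 14 histone genes 4 were called lower and 0 higher (medians -0.23, -0.53 and -0.01), among them H1f5 (-1.28 with APAP and -0.26 with AMAP), H2bc3 (-1.14 and -0.18) and H2ac15 (-0.87 and -0.09). H2ac4 had 6.88, 6.36 and 6.42 in APAP cells, below the array medians, with 8.03, 7.76 and 7.19 in AMAP cells and 8.13, 7.97 and 7.34 in control cells. Histone genes are near-identical copies and single values are uncertain. Both lists had 0 members called without control array 30 and 0 without control array 31 (limma, adjusted p), whereas without control array 32 there were 8 mitosis genes and 4 histones called lower. With the replicate block 14 mitosis genes and 4 histones were lower, with the block within each time 23 and 5, and with the 9 arrays at 6 h alone 0 and 1.

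**Figure D4:**
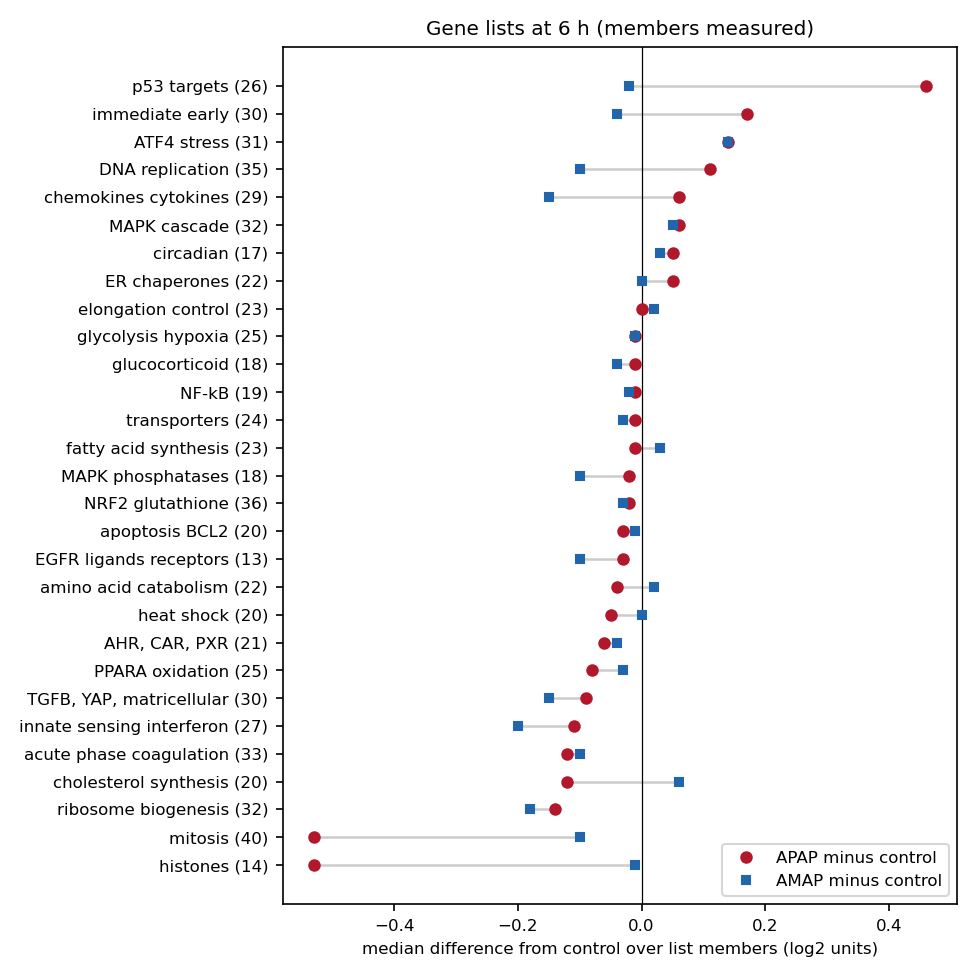
Median difference from control at 6 h over the measured members of each gene list (number in brackets), in log2 units, with circles for APAP and squares for AMAP. The lists of p53 targets, mitosis and histones have medians of 0.46, -0.53 and -0.53 with APAP and lie near 0 with AMAP. The ATF4 stress list has a median of 0.14 with both, but 4 of its members were called higher with APAP and 0 with AMAP.

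The title of the study names mitogen-activated protein kinases. Of 32 genes of the MAP kinase cascades, Gadd45a was called higher and Map2k6, a kinase upstream of p38, lower. Map2k6 changed by -0.37 ± 0.09, by -0.49 with APAP and -0.26 with AMAP. The median of the list was 0.08. Over all genes 0.787% were called higher and 1.14% lower. An unadjusted p under 0.05 in limma was found for 14 of the 32, against 2385 of all 19938 genes. With APAP alone 4 were called higher and 1 lower, and with AMAP alone 0 were called. Map2k6 had 8.82, 8.79 and 8.60 in APAP cells and 9.17, 8.97 and 8.76 in AMAP cells, against 9.36, 9.24 and 9.08 in control cells. Of 18 MAP kinase phosphatases none was called in limma and 4 had an unadjusted p under 0.05, the smallest p being that of Dusp16 (-0.31 ± 0.10, adjusted p = 0.126), and Dusp1 had 0.11 ± 0.16. Of 30 immediate early genes 3 were called higher (Atf3, Btg2 and Jun) and 1 lower (Sgk1, -0.37 ± 0.09), with medians of 0.10 pooled, 0.17 with APAP and -0.04 with AMAP. Fos (0.15 ± 0.10) and Egr1 (0.24 ± 0.14) did not pass.

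Among 36 genes of the NRF2 pathway and glutathione metabolism 0 were called (limma) and 1 had an unadjusted p under 0.05, and the medians were -0.03 pooled, -0.02 with APAP and -0.03 with AMAP. Heme oxygenase (Hmox1) had 9.00, 8.86 and 9.04 in APAP cells and 8.81, 8.82 and 8.61 in AMAP cells, against 8.74, 8.88 and 8.79 in control cells. The glutathione synthesis enzyme Gclc had 11.58, 11.66 and 11.63 in APAP cells and 11.80, 11.83 and 11.56 in AMAP cells, against 11.59, 11.89 and 11.56 in control cells. The groups overlapped for both genes, and their pooled 95% intervals were -0.14 to 0.24 for Hmox1 and -0.19 to 0.19 for Gclc. Srxn1, which reduces oxidised peroxiredoxins, had 0.19 ± 0.09 (adjusted p = 0.432), and the quinone reductase Nqo1 and the cytochromes Cyp1a1 and Cyp2e1, the second of which oxidises APAP in liver, had array values of 5.04 to 5.98 in all groups. Heat shock genes (20), endoplasmic reticulum chaperones (22), DNA replication genes (35), cholesterol synthesis (20), fatty acid synthesis (23), amino acid catabolism (22), NF-kB factors (19), epidermal growth factor receptor ligands and receptors (13) and ribosome biogenesis (32) also had 0 members called in limma, with 0 to 5 members each at an unadjusted p under 0.05, or 10 for ribosome biogenesis. Over all genes 2385 of 19938 had an unadjusted p under 0.05 in limma. The DNA replication medians had opposite signs with the isomers, at 0.01 pooled, 0.11 with APAP and -0.1 with AMAP. Of the 35 members 3 were called higher with APAP, against 1.05% of all genes. With AMAP 0 were called in either direction. The APAP minus AMAP test was called for 4 of the 35, all higher with APAP, against 0.476% of all genes. Ribosome biogenesis had medians of -0.16 pooled, -0.14 with APAP and -0.18 with AMAP. With the block its member Rrp1b was called (-0.32, adjusted p = 0.0491), as were Srebf2 of the sterol list (-0.31, adjusted p = 0.0352) and Bcl3 of the NF-kB list (-0.41, adjusted p = 0.0208).

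In the remaining lists 1 or 2 members were called, and over all genes 1.93% were called. The anti-apoptotic Bcl2l1 (BCL-XL) was lower by nearly the same amount with each compound (-0.35 with APAP and -0.35 with AMAP), with 10.66, 10.80 and 10.62 in APAP cells and 10.64, 10.86 and 10.59 in AMAP cells, against 11.03, 11.14 and 10.94 in control cells. Serpind1, heparin cofactor II, was the 1 called of 33 acute phase and coagulation genes (-0.54 ± 0.09), with values of 9.24 to 9.47 in all treated arrays and 9.82 to 9.92 in control cells. The matricellular gene Ccn4 (-0.45 ± 0.11) was called with Thbs1 among 30 genes linked to TGF beta and YAP. The lipid droplet protein Plin2 (-0.39 ± 0.10), the chemokine Ccl9 (-0.31 ± 0.08) and the clock gene Per2 (-0.30 ± 0.08) were lower, whereas the collagen prolyl hydroxylase P4ha1 (0.41 ± 0.07) and the AHR-induced Tiparp (0.29 ± 0.08) were higher. There were 52 called genes named outside the 24 leading ones, those of the closing observations included. Of the 52, 31, 34 and 25 were no longer called without control array 30, 31 or 32, and none changed sign. Without all arrays of number 30, 31 or 32, 49, 45 and 35 were lost. Taking the 6 treated arrays as 1 group lost 40, and requiring the larger of both compounds' p lost 47. With the replicate block 0 were lost.

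Among the other cell type markers, 7 biliary and progenitor genes had mean levels per array of 8.67 to 8.86 in APAP cells. The means were 8.56 to 8.77 in AMAP cells and 8.87 to 9.06 in control cells. The APAP and AMAP ranges overlapped each other, and both lay below the control range, by a narrow margin for APAP (8.86 against 8.87). How often lists were apart in this way was not counted. None of the 7 was called in limma, and Krt19, the biliary keratin and the 1 with an unadjusted p under 0.05, had -0.57 ± 0.24 (adjusted p = 0.313). Of 16 fibroblast and stellate cell markers Pdgfra was called lower (-0.37 ± 0.08), with list means of 7.57 to 7.62, 7.61 to 7.69 and 7.63 to 7.71 in APAP, AMAP and control cells. Endothelial markers (12) had 0 called in limma, 1 at an unadjusted p under 0.05, and list means of 6.07 to 6.24 on all arrays. The part of these markers in the results was not tested.

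The same pooled contrast was computed on the arrays of 2 and 24 h, which the 6 h contrast does not use. It gave 102 calls (0.512%) at 2 h and 880 (4.41%, with 1.78% higher and 2.64% lower) at 24 h. Of the 384 genes called at 6 h, 52 (13.5%) were called in the same direction at 2 h and 195 (50.8%) at 24 h, and 0 were called in the opposite direction at 24 h. Of the 120 shared increases 19 were called at 2 h and 59 at 24 h, and of the 187 shared decreases 24 and 100.

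Among the 12 leading increases 7 were already called at 2 h and 11 at 24 h, with medians of 0.47 at 2 h, 0.68 at 6 h and 0.54 at 24 h. Strip2 had 0.81, 0.96 and 0.62 at the 3 times, Cnnm4 had 0.59, 0.76 and 0.58, and Hexim1 had 0.71, 0.69 and 0.70. Gadd45a was the leading increase not called at 24 h (0.44, adjusted p = 0.116). Among the 12 leading decreases 1 (Itgb6, -0.47) was called at 2 h and 11 at 24 h, with medians of -0.30, -0.70 and -0.54. Ms4a6b had -0.36, -1.06 and -0.77, and Ms4a4a had -0.09, -0.71 and -0.92.

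The difference between times was tested directly. Against 2 h, 1 gene (0.00502%) was called, Ripply1, with -0.13 at 2 h and -0.70 at 6 h, a difference of -0.57 (adjusted p = 0.005 in limma), and 629 genes had an unadjusted p under 0.05. Against 24 h, 0 genes were called and 826 had an unadjusted p under 0.05. With the replicate block within each time these counts were 5 and 7. The larger count at 24 h does not show that single genes changed more there.

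**Figure D5:**
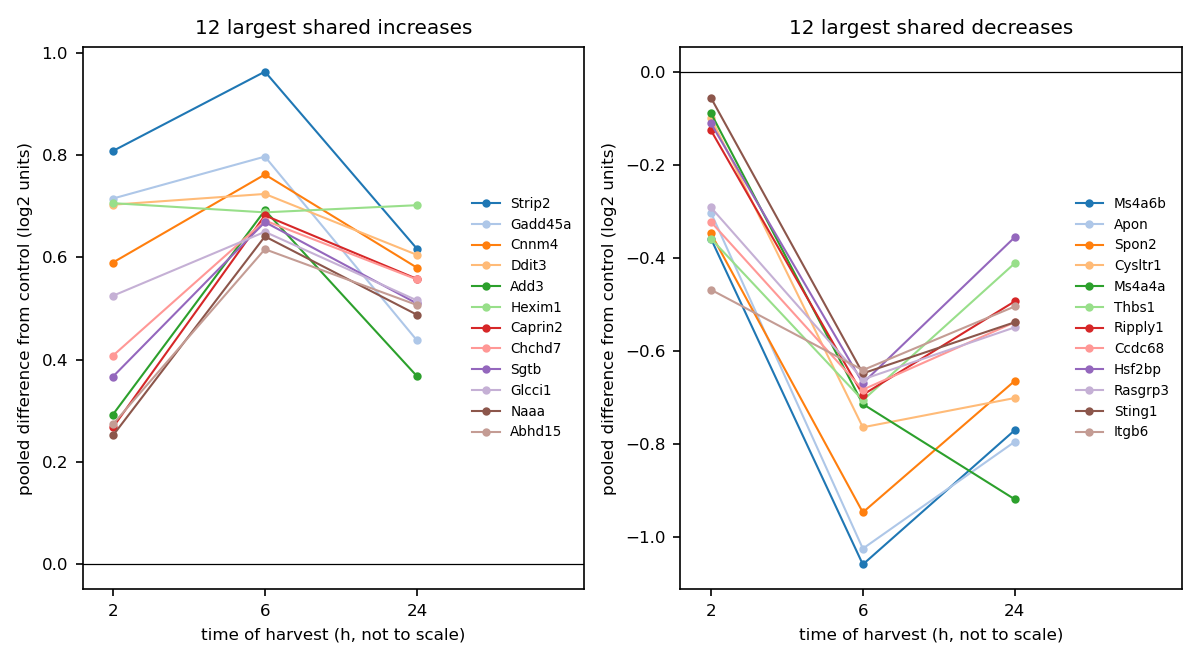
Pooled difference from control (vertical axis, log2 units) at 2, 6 and 24 h (horizontal axis, not to scale) for the 12 largest shared increases (left) and the 12 largest shared decreases (right), each line being a gene chosen by its 6 h value. Increases lie between 0.25 and 0.81 at 2 h, and all 12 decreases lie closer to 0 at 2 h than at 6 h.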

How the data were processed

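Total RNA of TAMH cells was hybridised to Affymetrix Mouse Gene 1.0 ST arrays, per the labels' protocols, and processed with RMA in Affymetrix Expression Console 1.1, per the submitters' processing notes. The deposited table holds 1 log2 value per probe set and array, and the log base was read from its range (1.34 to 15.18). The number of arrays limits the precision (median standard error of the pooled difference 0.085).

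Of 35557 probe sets, 21789 carry 1 gene symbol, 1621 several and 12147 none. Those with 1 symbol were kept, and the brightest was used for the 999 genes with several, leaving 19938 genes. All 27 arrays were fitted with 9 group means in limma 3.58.1 (R 4.3.3, eBayes, 18 residual and 7.3 prior degrees of freedom, two-sided tests, Benjamini-Hochberg adjustment over all genes). The pipeline was tested on simulated data. Same-numbered arrays at 6 h deviated together in 9 of 9 pairs (r 0.188 to 0.433, threshold 0.1), and 9 of 9 arrays correlated best with their own number, so the numbers pair the arrays, which the model with the replicate block takes in.

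The comparison, the 34 gene lists (797 of 870 entries matched, 29 by an older symbol) and the rule for named genes were chosen with earlier results of these data known. The rule names the 12 largest shared increases and decreases with a mean of at least 6 in the higher group, up to 3 called members of each list by p (or the 1 with the smallest p), the 4 highest and 4 lowest APAP minus AMAP values among genes called in both tests, and a panel of 21 genes. Promoters come from a RefSeq table (GRCm38.p6). Alternatives covered the block, scaling, dim genes, probe set choice, variance model, array weights, the arrays in the model and left-out arrays.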

Additional observations from a re-analysis of the deposited data

Results flagged for a closer look

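For 22 genes, of which Txnip and E2f1 are first described here, the effect of APAP and the effect of AMAP against the same control arrays differed at 6 h in the direct test of APAP minus AMAP (limma, adjusted p under 0.05), so their pooled value stands for unequal changes. Higher with APAP were Atf3 by 1.84, Txnip by 1.18, Jun by 1.13, Mybl1 by 1.08, Btg2 by 0.97, Arrdc3 by 0.96 and Mdm2 by 0.93 log2 units. Smaller differences were measured for Sesn2 (0.76), Ddit3 (0.69), Trp53inp1 (0.62), Pmaip1 (0.61) and the cell cycle transcription factor E2f1 (0.37). Lower with APAP were Cenpf (-1.24), H2ac4 (-1.11), Bub1b (-1.03), H1f5 (-1.03), H2bc3 (-0.97), Tpx2 (-0.81), H2ac15 (-0.78), Ect2 (-0.49), Zmiz1 (-0.41) and Jade2 (-0.39). The thioredoxin-binding alpha-arrestin Txnip had 11.45, 11.63 and 11.38 in APAP cells and 10.62, 10.62 and 9.67 in AMAP cells, against 10.41, 10.88 and 10.01 in control cells, so its pooled value of 0.46 was not called (adjusted p = 0.322) while its compounds differed.

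The pooled change of Ripply1 differed between 6 h and 2 h by -0.57 (adjusted p = 0.005 in limma), the 1 gene of 19938 for which that difference was called. Its pooled change was -0.13 at 2 h, -0.70 at 6 h and -0.49 at 24 h.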

How the results depend on the processing

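Of the 24 leading genes all stayed called with the replicate block, other scalings, the dim gene filter, another probe set choice, another variance model, array weights and any 1 APAP or AMAP array left out. Glcci1 was lost with the 9 arrays at 6 h alone, Ccdc68 and Rasgrp3 without control array 30, and Glcci1 and Thbs1 without control array 32. Without number 30, 31 or 32 there were 13, 8 and 3 lost, and 9 of the 24 (Apon, Caprin2, Chchd7, Cnnm4, Hsf2bp, Ms4a6b, Naaa, Ripply1 and Strip2) were lost under none of 24 alternatives. With the replicate block 595 genes were called pooled, 200 for AMAP and 157 pooled at 2 h. The block within each time gave 1022 pooled, 1112 APAP, 473 AMAP, 301 for APAP minus AMAP, 299 and 2013 pooled at 2 and 24 h, and 5 and 7 for the differences of 6 h from 2 and 24 h. The 9 arrays alone gave 152 pooled, 203 APAP, 21 AMAP and 46 for APAP minus AMAP, and with a block among them, an alternative chosen after seeing the data, 673, 753, 257 and 224. Array weights gave 254 for AMAP, 394 for APAP minus AMAP, 205 and 1728 pooled at 2 and 24 h, and the dim gene filter gave 137 for AMAP. Taking the 6 treated arrays as 1 group gave 108 pooled, and requiring the larger of both compounds' p gave 31 and left 14 of the 24 leading genes called. With 1 array or number left out, counts ran from 19 to 357 pooled, 65 to 554 APAP, 5 to 107 AMAP, 18 to 167 for APAP minus AMAP, 7 to 62 and 104 to 514 pooled at 2 and 24 h, and 0 to 1 for differences between times. Centring gave 139 higher and 280 lower, and quantile normalization 216 and 215. Changes of sign were limited to uncalled genes near 0: Gclc had 0.040 after quantile normalization and -0.064 to 0.105 with arrays left out, Hmox1 -0.005 to 0.100, Nqo1 -0.179 to 0.046 and Alb -0.013 to 0.087. The causes were not tested.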

Other observations

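The next 12 genes, known for roles at the actin cytoskeleton, the cell membrane or the matrix, were picked after their values were seen from the 187 shared decreases, and no count or test of such genes as a group was made. Trip6, a zyxin family adhesion protein, had 9.05, 8.88 and 8.78 in APAP cells and 8.97, 9.07 and 8.74 in AMAP cells, against 9.40, 9.41 and 9.26 in control cells (-0.44 ± 0.09, adjusted p = 0.0104 in limma). The caveolar coat protein Cav1 had 9.62, 9.40 and 9.73 in APAP cells and 9.78, 9.69 and 9.58 in AMAP cells, against 9.98, 10.29 and 10.17 in control cells (-0.51 ± 0.12). No treated array overlapped a control array for either gene. The rule for shared genes required this of all 12, and the choice fixed their direction. Calponin 2 (Cnn2, -0.50 ± 0.11), the membrane repair protein Myof (-0.49 ± 0.08), the filamin-binding Fblim1 (-0.43 ± 0.08), the matrix protease Mmp14 (-0.41 ± 0.09), the filamin Flnc (-0.35 ± 0.09), the actin-binding Lasp1 (-0.34 ± 0.07), the tensin Tns3 (-0.33 ± 0.08), Vasp (-0.30 ± 0.07), the actinin Actn1 (-0.29 ± 0.07) and talin (Tln1, -0.26 ± 0.07) were in the same direction. Talin, tensin, actinin and Vasp link integrins to actin filaments.

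Of the kinases downstream of the MAP kinases, those in the list of the MAP kinase cascades did not pass, with 0.29 for Mapkapk3, 0.08 for Mapkapk5 and -0.06 for Mapkapk2. The next 3 genes, in none of the lists, were picked after their values were seen from the shared increases. Rps6ka5, a nuclear kinase activated by ERK and p38, had 6.88, 6.79 and 6.70 in APAP cells and 6.59, 6.70 and 6.65 in AMAP cells, against 6.28, 6.04 and 6.24 in control cells (0.53 ± 0.07, adjusted p = 2.49e-04 in limma). Mknk2, which phosphorylates the cap-binding factor eIF4E, had 10.27, 10.25 and 10.26 in APAP cells and 10.32, 10.42 and 10.09 in AMAP cells, against 9.77, 9.91 and 9.85 in control cells (0.42 ± 0.07, adjusted p = 0.00263). Paqr3, which holds Raf kinase at the Golgi, rose by 0.52 ± 0.08, by 0.54 with APAP and 0.51 with AMAP. Each of the 3 was called with the adjustment over all genes, which the choice from the shared increases required.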
